A study of Homo sapiens with 12 samples.

Results

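The enzymes of the pentose phosphate pathway and of nucleotide synthesis were followed by their RNA in MDA-MB-231, a human cell line long established from a breast adenocarcinoma. The set holds 33 genes chosen by name, all of which were found among the 63187 genes of the deposited table, and 32 of them passed the filter on low values that left 9270 genes to test. Total RNA depleted of ribosomal RNA was sequenced in 12 libraries, 3 for each of 4 media held on the cells for 36 h after growth with 10% serum and penicillin-streptomycin in a high-glucose salt solution. Glucose stood at 25 mM and glutamine at 4 mM in the full medium, glucose-only medium kept the first and glutamine-only medium the second of these, and deficient medium had neither. All 4 media carried 3% serum, and the labels name no drug or genetic change. The libraries of a medium are lettered A, B and C, and the labels do not state whether they came from separate cultures, so the p-values measure the spread between libraries, which may be technical. The study asks how glucose and glutamine, alone or together, shape the state of these cells.

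The pentose phosphate pathway turns glucose 6-phosphate into ribose 5-phosphate, and its oxidative branch also yields NADPH. Ribose 5-phosphate is activated to phosphoribosyl pyrophosphate (PRPP), on which purines are built and to which the pyrimidine ring is joined, and several of these steps take nitrogen from the amide of glutamine. Ribonucleotide reductase and the thymidylate enzymes then make the deoxynucleotides for DNA, and the RNAs of several of them are known to be most abundant in S phase. The genes were taken in 5 groups in that order: 6 pentose phosphate genes, 2 PRPP synthetases, 11 purine genes, 7 pyrimidine genes and 7 deoxynucleotide genes.

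The libraries held 875033 to 1473587 reads assigned to genes, and the values below are normalized counts, in which 1 read is worth 0.661 to 1.30. Protein-coding genes took the largest share of reads in full medium, 55.4 ± 3.94% (SD, n = 3), with 51.1 ± 3.34% in glutamine-only, 44.4 ± 2.51% in glucose-only and 47.3 ± 4.34% in deficient libraries. Because the deposited scaling assumes that most genes do not move, shares of protein-coding reads and ratios of genes within a library are given beside the scaled values. The mesenchymal genes VIM and CD44 were read at 641 to 1047 and 378 to 786, and the 6 luminal epithelial markers were mixed. Among these KRT8 spanned 59.01 to 167.9, KRT18 234.8 to 396 and KRT19 63.92 to 164.5, while EPCAM reached at most 15.04, ESR1 2.35 and CDH1 0.917. All 4 fibroblast, 5 blood and 3 adipocyte markers were under 10 in every library. Of 4 endothelial markers, PECAM1 reached 19.7 and KDR 15.7, while CDH5 reached at most 0.963 and VWF 1.21. Fewer cells making a transcript and less of it per cell cannot be told apart in these bulk libraries.

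The deoxynucleotide genes were the group that fell together. Their summed reads were 8.74, 9.64 and 9.27 per 10000 protein-coding reads in the full libraries A, B and C, 4.99, 4.81 and 4.86 in glucose-only, 3.36, 3.82 and 3.62 in glutamine-only and 1.98, 1.71 and 1.96 in deficient medium. No 2 media overlapped. Pentose phosphate genes went another way, with 8.04, 8.57 and 8.45 in full, 7.55, 7.03 and 7.04 in glucose-only, 11.1, 11.8 and 11.7 in glutamine-only and 10.9, 12.1 and 11.3 in deficient medium. Both media without glucose lay above both media with it. Purine genes spanned 9.59 to 10.7 in full, 8.99 to 10.2 in deficient, 8.89 to 9.30 in glucose-only and 7.70 to 8.14 in glutamine-only medium, so that the glutamine-only sum lay below the rest. Abundant genes weigh most in such a sum, and PAICS had means of 207.6 in full and 119.9 in glutamine-only medium. By gene, the median log2 change of the purine group in glutamine-only against full was -0.03. Pyrimidine genes spanned 5.38 to 5.67 in full, 4.93 to 5.42 in glucose-only, 4.39 to 5.06 in deficient and 4.38 to 4.67 in glutamine-only medium, with overlaps between neighbours in that order. The 33 genes together took 33.7 to 35.5 per 10000 in full and 26.9 to 29 over the other 3 media. Without the 7 deoxynucleotide genes, the deficient libraries lay highest, at 26.4 to 27.1, above full at 24.4 to 25.9, glutamine-only at 24.2 to 25.2 and glucose-only at 22 to 23.

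**Figure D1:**
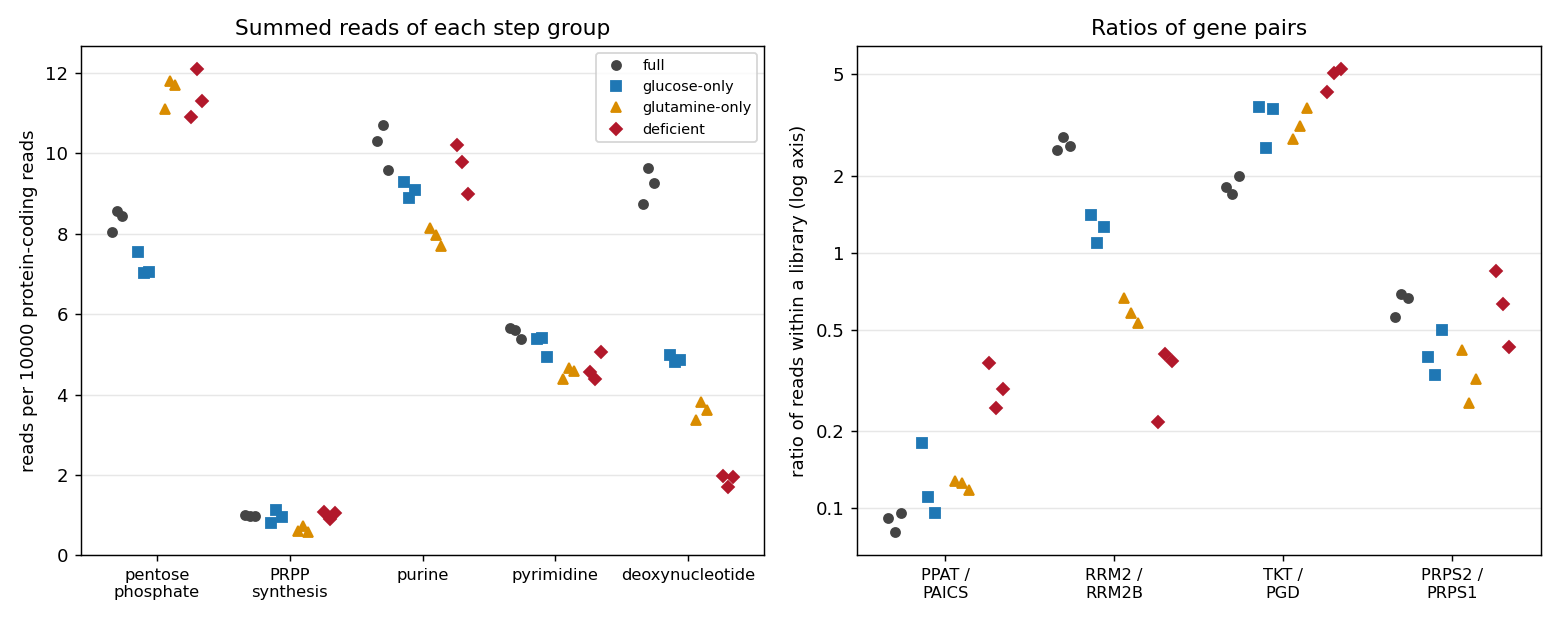
Left, summed reads of each of the 5 groups per 10000 protein-coding reads in each of the 12 libraries; right, ratios of reads of 4 gene pairs within each library on a log axis, with 1 point per library in both. The deoxynucleotide sum steps down from 8.74 to 9.64 in full to 1.71 to 1.98 in deficient medium, while the pentose phosphate sum is highest in the media without glucose, and the ratio of RRM2 to RRM2B falls in the same order as the deoxynucleotide sum.

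Each gene was tested with limma (limma-trend on log2(normalized count + 1), 1 mean per medium, Benjamini-Hochberg adjustment over the 9270 genes). Rose and fell are used below only where the adjusted p was under 0.05, log2 changes are given ± the moderated SE with n = 3 libraries in each medium, and a change that missed the threshold is not thereby shown to be absent. The libraries of 2 media are said not to overlap where every value of one lay above every value of the other. The 3 comparisons with full medium share the full libraries, as the 2 with deficient medium share the deficient ones. They are set side by side but are not independent of each other. In deficient against full, 6 of 32 tested genes rose and 10 fell, with a median log2 change of 0.06, where 51.8% of all tested genes passed, 26.3% higher and 25.5% lower, with a median of 0.01. With equal library totals the split of the 32 became 3 higher and 14 lower, and with equal protein-coding totals 4 higher and 12 lower. In glucose-only against full, 1 rose and 7 fell, with a median of -0.18, where 22.9% of all genes passed, 9.44% higher and 13.5% lower, with a median of -0.03. In glutamine-only against full, 2 rose and 9 fell, with a median of -0.20, where 22.5% of all genes passed, 10.8% higher and 11.6% lower, with a median of -0.01. The libraries did not overlap for 18, 12 and 13 of the 32 genes in these 3 comparisons, and for 57.3%, 37.9% and 38.8% of all tested genes. The share of the 32 that passed was thus 50%, 25% and 34.4%, which in the first 2 comparisons lay near that of all genes. In all, 21 of the 32 passed in at least 1 of the 3, and PAICS, CMPK1, TK1, RRM1 and RRM2 fell in each of them. For neither count was the share of all genes taken, so neither sets the 32 apart. Both rest on the same full libraries. These counts include TYMS and DHODH, which passed the filter through 1 medium where they were high (full and glucose-only), so that their differences from that medium follow in part from the filter.

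Between the limiting media the pattern divided by group under the deposited scaling. In glucose-only against deficient, 9 of 32 rose and 8 fell, where 43.2% of all genes passed, 20.1% higher and 23.2% lower. The libraries did not overlap for 17 of the 32 and for 48.6% of all genes. All 7 deoxynucleotide genes were among those that rose, while 3 of 6 pentose phosphate genes fell. Of these rises, RRM2B did not pass without deficient B (0.27), glucose-only B (0.51) or glucose-only C (0.41), and TYMS was 0.93 without deficient A and did not pass. With DESeq2 the rises of RRM2B (0.49) and TYMS (1.56) did not pass either. Of the pentose phosphate falls, that of TALDO1 did not pass with equal totals (-0.25), equal protein-coding totals (-0.17) or quantile normalization (-0.23).

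In glutamine-only against deficient, 6 rose and 9 fell, where 41.5% of all genes passed, 19.9% higher and 21.6% lower. Here the 6 that rose were all deoxynucleotide genes, and 5 of 11 purine genes were among the 9 that fell. The rise did not pass for TYMS without deficient A (0.55), deficient C (1.42), glutamine-only B (1.18) or glutamine-only C (1.27), for DUT without deficient C (0.56), glutamine-only B (0.53) or glutamine-only C (0.68), for DTYMK without deficient C (0.59) or glutamine-only C (0.70), or for RRM2B without deficient B (0.43). Among the purine genes the fall did not pass for PAICS without deficient B (-0.21), glutamine-only B (-0.22) or glutamine-only C (-0.29), for ATIC without deficient A (-0.36), deficient C (-0.48), glutamine-only A (-0.35) or glutamine-only C (-0.40), or for GMPS without deficient B (-0.46) or glutamine-only A (-0.44). PPAT (-1.51) and GART (-1.07) passed throughout. In glucose-only against glutamine-only, 3 rose and 3 fell, where 13.3% of all genes passed, 5.05% higher and 8.26% lower. The libraries did not overlap for 18 of 32 genes in the former and 10 in the latter of these 2 comparisons, against 49.8% and 29.8% of all genes. The 3 that fell, PGD, TKT and TALDO1, were all pentose phosphate genes, and the 3 that rose were PFAS, DHODH and RRM2. DHODH reached 10 only in the 3 glucose-only libraries, so its rise there follows in part from the filter and is given as a value only. TALDO1 did not pass without glucose-only C or glutamine-only C (-0.40 each). PFAS did not pass without glucose-only A (0.61), glucose-only C (0.72), glutamine-only A (0.79) or glutamine-only B (0.60), and DHODH did not pass without glucose-only A (1.34), glucose-only B (1.28), glutamine-only A (1.11) or glutamine-only C (1.13). With equal library totals, the split in glutamine-only against deficient became 11 higher and 3 lower, and with equal protein-coding totals 10 higher and 3 lower. In glucose-only against deficient it became 10 higher and 5 lower, and 12 higher and 5 lower, and in glucose-only against full 0 higher and 12 lower, and 2 higher and 7 lower. By group, in glutamine-only against deficient, 2 of 11 purine genes fell with either kind of equal totals. There 3 pentose phosphate genes rose with all 7 deoxynucleotide genes, so the division by group in that comparison depends on the scaling.

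**Figure D2:**
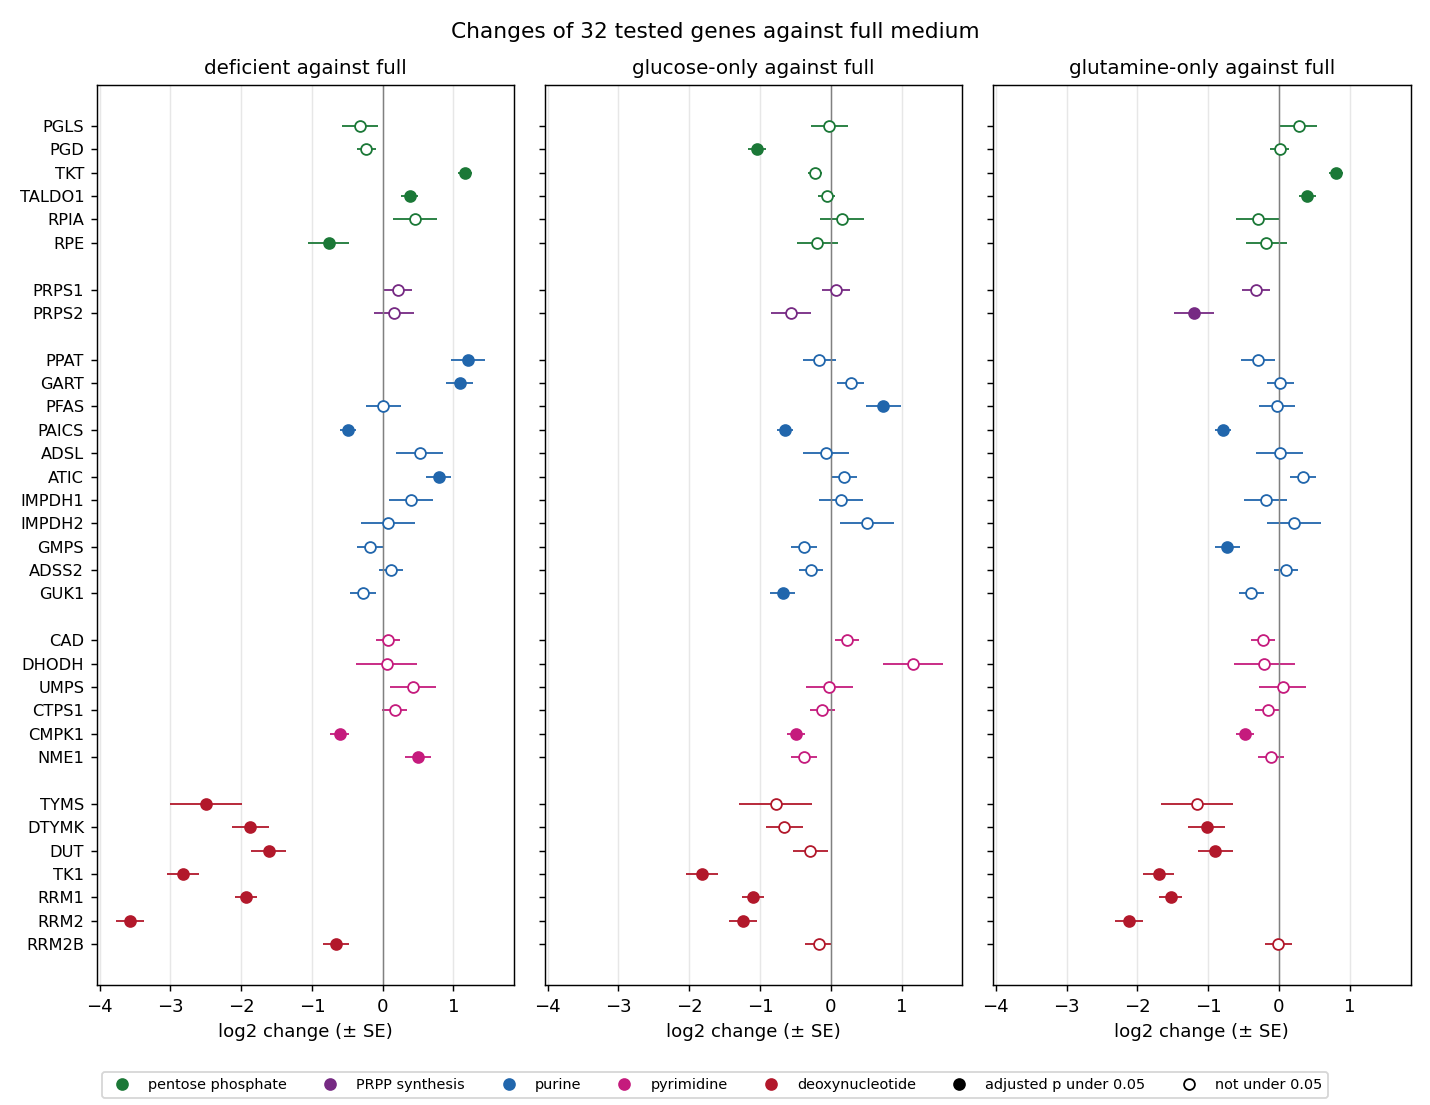
Log2 change against full medium ± SE of the 32 tested genes, ordered by group (n = 3 libraries in each medium); filled points have a limma adjusted p under 0.05 over all 9270 tested genes. The red deoxynucleotide genes lie to the left of 0, down to -3.57 for RRM2, except RRM2B at -0.01 in glutamine-only medium, and TKT, PPAT and GART lie near 1.1 to 1.2 in the left panel.

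In the pentose phosphate group the change was carried by the transketolase gene TKT, at chr3:53224712-53256022 of GRCh38.p14, whose enzyme links the pathway to glycolysis in its reversible branch. TKT stood at 181, 184 and 189.9 in the full libraries, 165, 145 and 167 in glucose-only, 302, 334 and 337 in glutamine-only and 375, 443 and 426 in deficient medium. The ranges of the 4 media did not overlap for this gene, and both media without glucose were highest. TKT rose by 1.16 ± 0.10 (limma adjusted p = 9.31e-11) in deficient and by 0.80 ± 0.10 (limma adjusted p = 4.41e-07) in glutamine-only medium, and its change in glucose-only medium was -0.22 ± 0.10, limma adjusted p = 0.109. Its excess of deficient over glutamine-only medium (-0.35 for glutamine-only against deficient) passed under the deposited scaling, and was -0.07 with equal totals and -0.18 with equal protein-coding totals, neither past the threshold.

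PGD, at chr1:10399064-10420511, encodes 6-phosphogluconate dehydrogenase, which makes NADPH and ribulose 5-phosphate in the oxidative branch. It read 101, 108 and 95.4 in full, 44.6, 56.6 and 45.9 in glucose-only, 109, 107 and 91.3 in glutamine-only and 88.5, 88.1 and 81.5 in deficient medium. Glucose-only libraries lay alone, well below all others. PGD fell by 1.04 on the log2 scale in glucose-only against full (SE 0.13, limma adjusted p = 5.03e-07) and stood at -0.23 ± 0.13 (limma adjusted p = 0.134) in deficient and 0.01 ± 0.13 (limma adjusted p = 0.962) in glutamine-only medium. The ratio of TKT to PGD reads in a library needs no scaling. It was 1.70 to 1.99 in full, 2.56 to 3.70 in glucose-only, 2.77 to 3.68 in glutamine-only and 4.24 to 5.22 in deficient medium, so that full lay below and deficient above the other media.

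TALDO1 encodes transaldolase, the other carbon-exchanging enzyme of the reversible branch. Its values were 80.7, 95.9 and 78.9 in full, 89.1, 80.7 and 75.3 in glucose-only, 102, 115 and 120.2 in glutamine-only and 111, 105 and 117 in deficient medium, with the media without glucose above those with it. It rose by 0.38 ± 0.12 (limma adjusted p = 0.0106) in deficient medium, a change that turned to -0.02 with equal totals, and by 0.40 ± 0.12 (limma adjusted p = 0.018) in glutamine-only medium. The rise in deficient medium did not pass without full C (0.33), and that in glutamine-only medium did not pass without full A (0.36), full C (0.35), glutamine-only B (0.38) or glutamine-only C (0.35).

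RPE encodes the epimerase that makes xylulose 5-phosphate. It was read at 17.2, 22.6 and 22.02 in full and 13.02, 15.7 and 7.77 in deficient medium, and spanned 12.9 to 24.1 in glucose-only and 14.4 to 21.2 in glutamine-only medium. Its fall in deficient medium (-0.76 ± 0.29, limma adjusted p = 0.0322) passed without overlap but was lost without deficient C (-0.49), full B (-0.69) or full C (-0.70). PGLS, the lactonase gene of the oxidative branch, and RPIA, the isomerase gene that yields ribose 5-phosphate, passed in none of the 6 comparisons, with changes of -0.32 and 0.46 in deficient medium. PGLS ranged from 13.98 to 33.9 and RPIA from 8.60 to 21.7 over the 12 libraries.

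**Figure D3:**
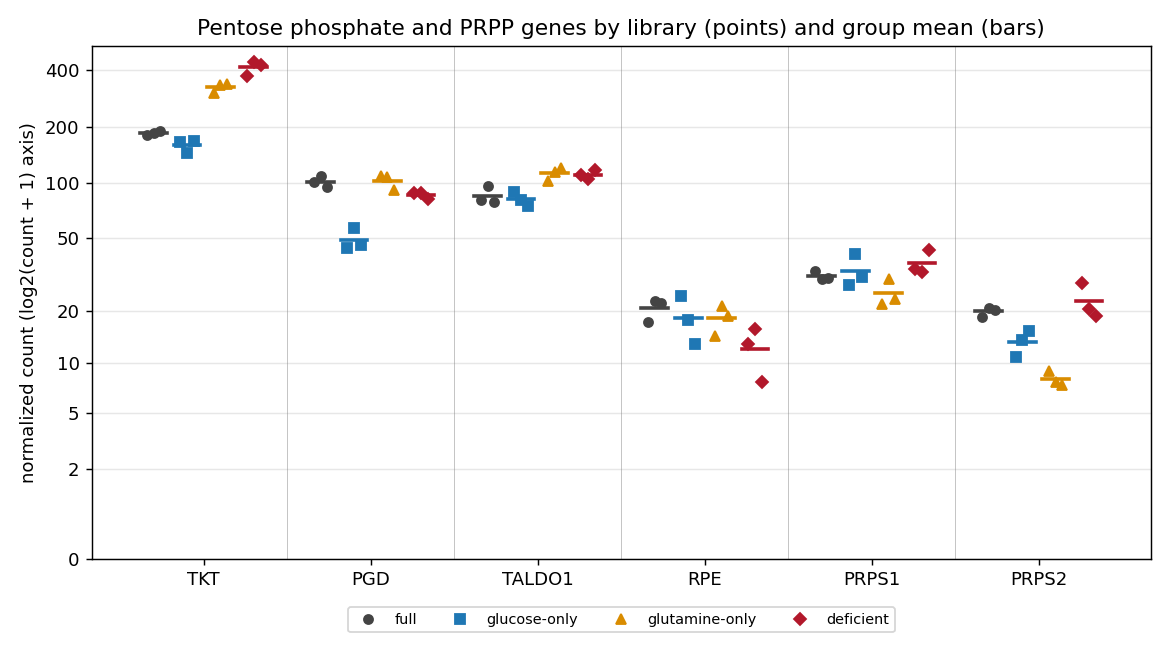
Normalized counts of 4 pentose phosphate genes and the 2 PRPP synthetase genes in each library (points) with the mean of each medium (bars), on a log2(count + 1) axis. TKT is highest in the media without glucose, PGD is lowest in glucose-only medium at 44.6 to 56.6, and PRPS2 is lowest in glutamine-only medium at 7.46 to 9.02.

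The paralogous synthetases PRPS1 and PRPS2 both make PRPP from ribose 5-phosphate. Both had their highest mean in deficient and their lowest in glutamine-only medium. PRPS2, at chrX:12791412-12824222, was read at 18.5, 20.7 and 20.2 in full, 10.8, 13.6 and 15.3 in glucose-only, 9.02, 7.71 and 7.46 in glutamine-only and 28.6, 20.5 and 18.6 in deficient medium. Glutamine-only libraries were lowest and overlapped no other medium. PRPS2 fell by 1.20 in glutamine-only against full on the log2 scale (SE 0.28, limma adjusted p = 0.00181), and its change was 0.16 ± 0.28 (limma adjusted p = 0.65) in deficient and -0.56 ± 0.28 (limma adjusted p = 0.153) in glucose-only medium. PRPS1 was read at 33.1, 30.1 and 30.3 in full, 27.7, 40.9 and 30.6 in glucose-only, 21.7, 29.9 and 23.3 in glutamine-only and 33.8, 32.6 and 43.5 in deficient medium, and passed in no comparison with full. In glutamine-only against deficient both genes fell, PRPS1 with -0.54 ± 0.20 (limma adjusted p = 0.0335) and PRPS2 with -1.36 ± 0.28 (limma adjusted p = 0.000259). The fall of PRPS1 did not pass with equal totals (-0.27). The ratio of PRPS2 to PRPS1 reads was 0.560 to 0.687 in full and 0.258 to 0.417 in glutamine-only medium without overlap, with 0.333 to 0.5 in glucose-only and 0.429 to 0.846 in deficient medium. PRPS2 is thinly read at these levels, which limits the precision of the ratio.

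The purine genes that passed went in both directions. In deficient against full, PPAT, GART and ATIC rose, PAICS fell and 7 of 11 did not pass, with a group median of 0.12. The 36.4% that passed compare with 51.8% of all tested genes. In glucose-only against full, PFAS rose, PAICS and GUK1 fell and 8 did not pass (median -0.07, 27.3% against 22.9% of all genes), and in glutamine-only against full PAICS and GMPS fell and 9 did not pass (median -0.03, 18.2% against 22.5% of all genes).

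PPAT, at chr4:56393362-56435615 on the minus strand, encodes the amidotransferase that commits PRPP to purine synthesis using glutamine. It was read at 18.5, 16.9 and 20.2 in full, 21.7, 15.7 and 12.9 in glucose-only, 17.1, 13.5 and 13.98 in glutamine-only and 50.8, 41.1 and 41.2 in deficient medium. Deficient libraries stood apart at more than 41 while all 9 others were under 22. PPAT rose 2.31-fold in deficient against full (1.21 ± 0.24, limma adjusted p = 0.000115), and its changes were -0.16 ± 0.24 (limma adjusted p = 0.677) in glucose-only and -0.30 ± 0.24 (limma adjusted p = 0.407) in glutamine-only medium.

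PAICS, its neighbour on the plus strand at chr4:56410507-56464578, encodes a bifunctional enzyme that acts later in the same pathway. It read 202, 209.6 and 211 in full, 121, 142 and 135 in glucose-only, 134, 107 and 118 in glutamine-only and 137, 167 and 139.8 in deficient medium. Full libraries were above all others. PAICS fell by 0.49 in deficient (limma adjusted p = 0.000593), by 0.65 in glucose-only (8.91e-05) and by 0.79 in glutamine-only medium (4.49e-06), each with an SE of 0.11 on the log2 scale. The ratio of PPAT to PAICS reads was 0.0807 to 0.0957 in full, 0.0957 to 0.180 in glucose-only, 0.118 to 0.128 in glutamine-only and 0.246 to 0.371 in deficient medium. Deficient libraries lay above every other.

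These 2 genes start head to head, and the bases between them are shown because the neighbours changed in opposite directions in deficient medium. The start of PPAT at position 56435615 and a start of PAICS at 56435752 leave 136 bases between them on chromosome 4, although RefSeq also lists a PAICS start inside the span of PPAT. The first line below is the stretch between the genes outside annotated exons, chr4:56435616-56435740 on the plus strand, in RefSeq GRCh38.p14. The second is chr4:56435772-56435801, just inside PAICS, with the letters CACGTG in capitals. That string is the core of the E-box, the element bound by MYC with MAX and by related factors, and this single copy lies in the promoter windows of both genes.
PPAT to PAICS: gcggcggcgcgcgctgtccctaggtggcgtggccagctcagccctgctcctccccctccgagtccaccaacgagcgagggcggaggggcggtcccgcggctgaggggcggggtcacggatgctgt
PAICS E-box: ctggaaagctgtatttgctgCACGTGgaaa
The windows searched ran from 250 bases before to 50 bases after each RefSeq start, on both strands, and 30 of the 33 genes had one (ADSL, IMPDH2 and RRM2B had none). CACGTG stood in the windows of 5 of these 30 genes, PPAT, PAICS, ATIC, DHODH and NME1, and of 8.77% of 27305 genes. MYC itself rose in every limiting medium, from 42.3, 49.8 and 39.5 in full to 85.5, 79.6 and 95.2 in glucose-only, 71.3, 71.3 and 76.4 in glutamine-only and 311, 318 and 329 in deficient medium (2.84 ± 0.12 in deficient against full, limma adjusted p = 1.35e-17). Binding was not measured, and a string match is a description of the letters alone.

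GART and ATIC encode multifunctional enzymes, of which GART acts at several earlier steps and ATIC closes the purine ring. GART was read at 36.4, 40.4 and 27.5 in full, 36.1, 40.9 and 49.4 in glucose-only, 30.7, 36.6 and 37.3 in glutamine-only and 96.3, 57.96 and 72.99 in deficient medium, with the deficient libraries above the rest. It rose by 1.09 ± 0.19 (limma adjusted p = 2.05e-05) in deficient medium. ATIC was read at 41.7, 41.4 and 29.4 in full, 39.8, 37.7 and 50.6 in glucose-only, 41.5, 56.8 and 44.7 in glutamine-only and 72.9, 60.4 and 61.3 in deficient medium, again highest in deficient. Its rise of 0.79 ± 0.18 (limma adjusted p = 0.000437) became 0.40 with equal totals and did not pass there. Neither gene passed against full in glucose-only or glutamine-only medium.

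PFAS encodes the next glutamine-using step after that of PPAT. Its values were 29.8, 31.02 and 14.7 in full, 50.6, 30.4 and 43.5 in glucose-only, 24.4, 18.3 and 28.9 in glutamine-only and 26.03, 21.7 and 24.9 in deficient medium. It rose by 0.74 ± 0.25 (limma adjusted p = 0.0341) in glucose-only against full, although the 2 media overlapped, and the rise did not pass without full C (0.41), glucose-only A (0.59) or glucose-only C (0.69). GMPS, which makes GMP with nitrogen from glutamine, was read at 52.2, 57.3 and 55.04 in full, 53, 40.9 and 34.1 in glucose-only, 27.96, 32.7 and 38.2 in glutamine-only and 44.3, 54.3 and 46.6 in deficient medium. It fell by 0.73 in glutamine-only against full (log2, SE 0.18, limma adjusted p = 0.00271) without overlap. GUK1, the guanylate kinase gene, was read at 66.1, 63.9 and 57.8 in full and 43.4, 41.9 and 31.8 in glucose-only medium and fell there by 0.68 (log2, SE 0.18, limma adjusted p = 0.00561).

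The remaining purine genes passed in none of the 6 comparisons. IMPDH1 and IMPDH2 encode the paralogous dehydrogenases that direct IMP towards GMP. IMPDH1 was read at 13.2, 17.9 and 14.7 in full, 16.9, 12.6 and 22.3 in glucose-only, 18.04, 13.5 and 9.32 in glutamine-only and 28.6, 21.7 and 13.2 in deficient medium. IMPDH2 was read at 6.61, 6.58 and 10.1 in full, 9.64, 11.5 and 12.9 in glucose-only, 9.02, 8.67 and 9.32 in glutamine-only and 11.7, 3.62 and 11.7 in deficient medium, close to the filter of 10. The media overlapped for both, except that IMPDH2 lay higher in glucose-only than in glutamine-only libraries. ADSL, which acts in both the common and the AMP branch, ranged from 9.17 to 31.4, and ADSS2, which starts the AMP branch, from 35.3 to 60.4 over the 12 libraries.

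**Figure D4:**
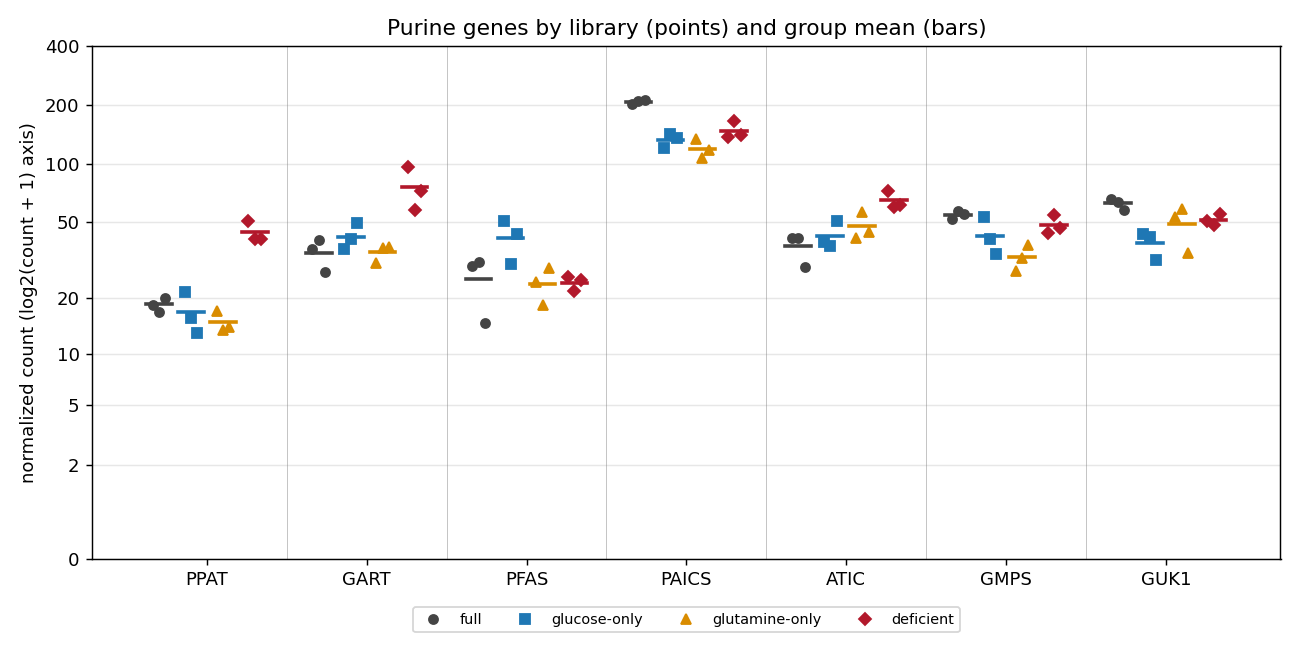
Normalized counts of the 7 purine genes that passed against full medium in at least 1 comparison, in each library (points) with the mean of each medium (bars), on a log2(count + 1) axis. PPAT and GART are highest in deficient medium, PAICS is highest in full medium at 202 to 211, and PFAS reaches 30.4 to 50.6 in glucose-only medium.

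Glutamine is a substrate of 6 of the encoded enzymes, PPAT, PFAS, GMPS, CAD, CTPS1 and CTPS2. Of the 5 that could be tested, 1 rose and none fell in deficient against full (PPAT), 1 rose and none fell in glucose-only against full (PFAS), and none rose and 1 fell in glutamine-only against full (GMPS). The group medians were 0.08, -0.12 and -0.22. In each comparison 1 of the 5 passed (20%), beside 51.8%, 22.9% and 22.5% of all tested genes. The share in glucose-only and in glutamine-only medium thus lay near that of all genes. None of the 5 passed in both media that lacked glutamine.

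Of the 6 pyrimidine genes tested, NME1 rose and CMPK1 fell in deficient against full, and only CMPK1 passed, lower, in glucose-only and in glutamine-only against full. The shares that passed were 33.3%, 16.7% and 16.7%, against 51.8%, 22.9% and 22.5% of all genes. CAD, whose enzyme carries out the first steps of the ring, was read at 44.96, 38.5 and 35.8 in full, 50.6, 45.1 and 44.7 in glucose-only, 32.5, 31.8 and 37.3 in glutamine-only and 46.9, 39.9 and 39.6 in deficient medium. It passed in none of the 6 comparisons, although glucose-only libraries lay above glutamine-only ones (0.46 ± 0.17, limma adjusted p = 0.0674). DHODH, the mitochondrial step, was read at 5.29, 4.70 and 5.50 in full, 13.3, 14.7 and 10.6 in glucose-only, 2.71, 9.63 and 2.80 in glutamine-only and 3.91, 8.45 and 4.66 in deficient medium. Only the 3 glucose-only libraries reached 10, so the gene could be tested only because it was high in that medium. Its change in glucose-only against full was 1.16 ± 0.43, limma adjusted p = 0.0514.

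UMPS, which completes UMP, passed in none of the 6 comparisons and ranged from 8.23 to 29.9. CTPS1 and CTPS2, the paralogous CTP synthases, were unequal in level. CTPS1 was read at 57.5, 48.9 and 40.4 in full, 34.9, 45.1 and 56.4 in glucose-only, 44.2, 38.5 and 47.5 in glutamine-only and 44.3, 55.5 and 66 in deficient medium, and passed nowhere. CTPS2 was read at 3.97, 2.82 and 2.75 in full, 4.82, 9.43 and 3.53 in glucose-only, 3.61, 2.89 and 6.52 in glutamine-only and 1.30, 1.21 and 2.33 in deficient medium and was not tested under the filter. The media overlapped for CTPS1, and the deficient libraries were lowest for CTPS2.

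CMPK1, the UMP and CMP kinase gene, was read at 132, 122 and 139 in full, 101, 89.1 and 88.2 in glucose-only, 93.8, 99.2 and 87.6 in glutamine-only and 76.8, 77.3 and 105 in deficient medium, with full above all others. It fell by 0.61 in deficient (limma adjusted p = 0.00022), 0.49 in glucose-only (0.00534) and 0.48 in glutamine-only medium (0.00622), with an SE of 0.13 each. NME1, a nucleoside diphosphate kinase gene, was read at 32.4, 47.9 and 43.1 in full, 37.3, 29.3 and 27.04 in glucose-only, 30.7, 44.3 and 39.2 in glutamine-only and 58.6, 54.3 and 61.3 in deficient medium, where it was highest. Its rise of 0.50 ± 0.18 (limma adjusted p = 0.0238) in deficient medium was lost with equal totals (0.11) and without deficient A (0.50), deficient C (0.46) or full A (0.34). NME1 shares 638 exonic bases with the readthrough gene NME1-NME2 in GENCODE release 29, so its reads may be split with that gene.

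All 7 deoxynucleotide genes had their highest mean in full and their lowest in deficient medium. TYMS passed the filter through its high values in full medium, so its differences from full are given apart. The other 6 all fell in deficient against full, by -0.66 to -3.57 on the log2 scale, where 25.5% of all genes fell, and all 6 also fell under equal totals, equal protein-coding totals, quantile normalization and edgeR's quasi-likelihood test. Of these 6, 5 fell in glutamine-only and 3 in glucose-only against full, and none rose in either by limma. The 3 that fell in every limiting medium were RRM1, RRM2 and TK1.

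RRM2, at chr2:10122568-10211010, encodes the small subunit of ribonucleotide reductase, which is made in dividing cells. It was read at 105, 109 and 106 in full, 45.8, 37.7 and 50.6 in glucose-only, 23.5, 24.1 and 23.3 in glutamine-only and 6.51, 7.25 and 10.9 in deficient medium. No 2 media overlapped. RRM2 was 11.9-fold lower in deficient than in full medium (-3.57 ± 0.20, limma adjusted p = 6.58e-15), 4.36-fold lower in glutamine-only (-2.12 ± 0.20, limma adjusted p = 2.32e-09) and 2.37-fold lower in glucose-only medium (-1.24 ± 0.20, limma adjusted p = 2.87e-05). It also passed between the limiting media, 1.84-fold higher in glucose-only than in glutamine-only (0.88 ± 0.20, limma adjusted p = 0.00261), and it was the only deoxynucleotide gene to do so under the deposited scaling. RRM1 also passed that comparison with equal protein-coding totals and with quantile normalization.

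RRM2B encodes the small subunit that p53 can induce and that serves cells outside S phase. It was read at 41.7, 38.5 and 40.4 in full, 32.5, 34.6 and 39.98 in glucose-only, 35.2, 41.4 and 43.8 in glutamine-only and 29.9, 18.1 and 28.7 in deficient medium. Only the deficient libraries lay below the full ones. It fell there by 0.66 (log2, SE 0.19, limma adjusted p = 0.00552), a change that was -0.44 and did not pass without deficient B. The ratio of RRM2 to RRM2B reads was 2.51 to 2.83 in full, 1.09 to 1.41 in glucose-only, 0.532 to 0.667 in glutamine-only and 0.217 to 0.4 in deficient medium, without overlap between any media. RRM2 reads thus outnumbered those of its paralog in the media with glucose and were fewer in those without. In GENCODE release 29 RRM2 shares 1077 exonic bases with AC007240.1 on the same strand. That release also lists 3 pseudogenes named after RRM2, so its reads may be split with these genes.

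RRM1, the large subunit gene at chr11:4094685-4138932, was read at 129, 162 and 145 in full, 73.5, 70.2 and 57.6 in glucose-only, 46, 59.7 and 43.8 in glutamine-only and 35.1, 30.2 and 48.9 in deficient medium. It fell less than RRM2 in deficient medium, by 1.93 (SE 0.16, limma adjusted p = 8.05e-11), and the ratio of RRM2 to RRM1 reads was 0.674 to 0.810 in full and 0.185 to 0.240 in deficient medium. TK1, the cytosolic thymidine kinase gene at chr17:78174079-78187204, was read at 80, 105 and 85.3 in full, 25.3, 22 and 27.04 in glucose-only, 28.9, 26 and 26.1 in glutamine-only and 18.2, 9.66 and 9.32 in deficient medium. Full libraries stood far above the rest for both genes. TK1 fell by 2.82 in deficient (limma adjusted p = 1.49e-11), 1.82 in glucose-only (3.92e-07) and 1.70 in glutamine-only medium (1.11e-06), with an SE of 0.22 each. RRM1 fell by 1.10 in glucose-only (limma adjusted p = 1.01e-05) and by 1.53 in glutamine-only medium (3.4e-08).

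TYMS, the thymidylate synthase gene, was read at 21.2, 11.3 and 17.4 in full, 10.8, 9.43 and 7.06 in glucose-only, 4.51, 8.67 and 7.46 in glutamine-only and 0, 7.25 and 2.33 in deficient medium. Only 4 libraries reached 10, the 3 full ones and glucose-only A, so it was tested through its high group. Its change in deficient medium was -2.50 ± 0.51, limma adjusted p = 0.000154, and -1.71 without deficient A, the library with no TYMS read, and -3.23 without deficient B. The exons of TYMS share 1150 bases with genes on the opposite strand in GENCODE release 29, and the strand setting of the counting is not given in the sources used here. DTYMK, the thymidylate kinase gene, spanned 36.4 to 45.1 in full, 22.9 to 28.3 in glucose-only, 15.4 to 25.2 in glutamine-only and 6.99 to 14.5 in deficient medium. It fell by 1.87 in deficient (SE 0.26, limma adjusted p = 4.93e-07) and 1.02 in glutamine-only medium (0.00393). DUT, whose enzyme removes dUTP, spanned 28.2 to 43.1 in full, 25.9 to 29.3 in glucose-only, 13.5 to 23.1 in glutamine-only and 8.54 to 12.1 in deficient medium. It fell by 1.61 in deficient medium (SE 0.25, limma adjusted p = 4.32e-06) and by 0.90 in glutamine-only medium (0.00911), where the call was lost without glutamine-only A (-0.71) or full C (-0.74). GENCODE release 29 lists 8 pseudogenes named after DUT, which could share reads with it.

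**Figure D5:**
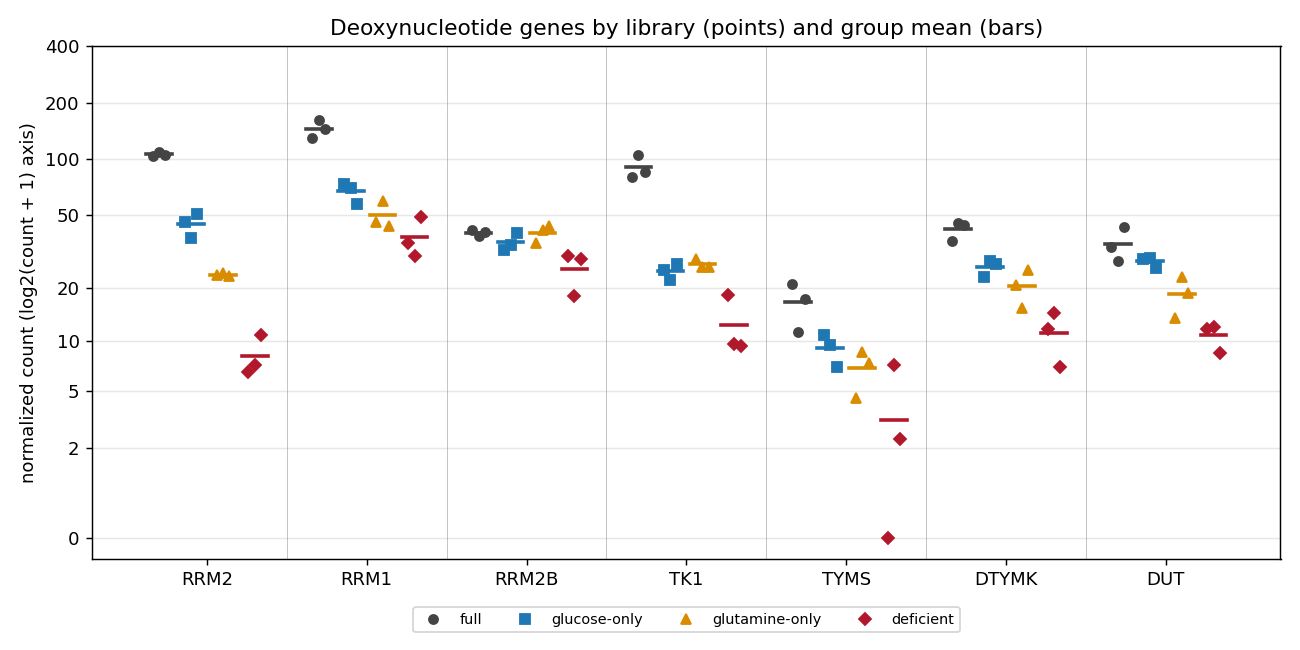
Normalized counts of the 7 deoxynucleotide genes in each library (points) with the mean of each medium (bars), on a log2(count + 1) axis. RRM2 steps down from 105 to 109 in full to 6.51 to 10.9 in deficient medium with no overlap between media, RRM2B stays between 18.1 and 43.8, and 1 deficient library has no TYMS read.

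Promoter letters of these genes are shown because the group moved together. The strings searched were the E2F core in the forms TTTGGCG, as well as TTTCGCG, as well as TTCCCGC, then the CCAAT box, then the cell cycle homology region in the form TTTGAA, or in the form TTCGAA, and for the amino acid response TGATGNAA, each on both strands and in the windows described above. E2F strings stood in the windows of 4 of the 6 deoxynucleotide genes with a window (RRM1, TK1, TYMS and DUT), of 10 of 30 genes of the set and of 11.1% of all genes. CCAAT stood in 4 of the 6 (RRM1, RRM2, TK1 and DTYMK), in 5 of the 6 pentose phosphate genes, in 14 of 30 and in 39.7% of all. The cell cycle homology strings stood in 3 of the 6, in 5 of 30 and in 19.5% of all, and the amino acid response string in none of 30 and in 4.46% of all. The stretches below are 30 bases each in RefSeq GRCh38.p14, written 5′ to 3′ on the strand of the gene, with the CCAAT or E2F letters in capitals, where ATTGG and GCGGGAA are the same strings read on the other strand.
RRM2 CCAAT: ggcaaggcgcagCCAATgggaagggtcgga
RRM1 CCAAT: gcatgtccatatCCAATggggcccatggga
TK1 CCAAT: ggccgggcgctgATTGGccccatggcggcg
RRM1 E2F: caagaaaaacgTTCCCGCcggttaggtttt
TK1 E2F: aagcggtcggcGCGGGAAccaggggcttac
TYMS E2F: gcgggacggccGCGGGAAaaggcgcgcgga
DUT E2F: gggcggggctgGCGGGAAatttcggttttg
In the same order they lie at chr2:10122604-10122633 (+), chr11:4094645-4094674 (+), chr17:78187112-78187141 (-), chr11:4094451-4094480 (+), chr17:78187046-78187075 (-), chr18:657603-657632 (+) and chr15:48332144-48332173 (+). The RRM2, TK1 and DUT stretches come from windows of RefSeq starts inside the spans of these genes. RRM2 holds several CCAAT copies before its later start and a single copy 249 bases before its earlier start. It holds no E2F string in these windows, and no binding data bear on any of these strings.

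Many markers of S phase fell with the deoxynucleotide genes in deficient and glutamine-only against full medium, and fewer in glucose-only against full. The part of these markers in the result was not tested. Of 24 S phase genes 20 were tested. In deficient against full 15 of them fell and none rose (median -1.18), in glutamine-only against full 15 fell and none rose (median -1.04), and in glucose-only against full 4 fell and none rose (median -0.35), where 25.5%, 11.6% and 13.5% of all genes fell. The 4 became 7 with equal totals, 2 with equal protein-coding totals and 3 with quantile normalization. Of the 20, UHRF1, GINS1 and CDC45 reached 10 in only 5, 4 and 3 libraries. They passed the filter only with full libraries counted, so their differences from full follow in part from the filter. The proliferation marker MKI67 was 546, 525 and 528 in full, 249, 247 and 221 in glucose-only, 125, 122 and 138 in glutamine-only and 65.1, 100.2 and 83.1 in deficient medium, falling in each of the 3 media without overlap. The sliding clamp gene PCNA was 74.1, 73.3 and 96.3, 51.8, 46.1 and 42.3, 23.5, 36.6 and 30.8 and 35.1, 27.8 and 30.3 in the same order, with the last 2 media overlapping. In glutamine-only against deficient, none of the 20 S phase genes rose and 1 fell (median 0.00), whereas 6 of the 7 deoxynucleotide genes rose (median 0.86). Of all tested genes, 19.9% rose and 21.6% fell there. With DESeq2 the rises of TYMS, DUT and RRM2B did not pass. With equal totals 2 of the 20 rose and none fell, and all 7 deoxynucleotide genes rose. With equal protein-coding totals 2 of the 20 rose, 1 fell and all 7 deoxynucleotide genes rose. Of those 7, 5 rose with quantile normalization and 5 with edgeR. TK1 (1.12 ± 0.22, limma adjusted p = 0.000186) and RRM2 (1.45 ± 0.20, limma adjusted p = 1.23e-06) had the largest of those rises among calls that held with equal totals, equal protein-coding totals, quantile normalization and edgeR. In glucose-only against glutamine-only 9 of the 20 S phase genes rose and none fell (median 0.71), and 1 of the 7 deoxynucleotide genes rose. Of all tested genes, 5.05% rose and 8.26% fell in this comparison. The rises numbered 7 and 1 with equal totals, 11 and 2 with equal protein-coding totals and 11 and 2 with quantile normalization.

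The interaction asks whether the effect of glucose with glutamine present (full against glutamine-only) differed from its effect without glutamine (glucose-only against deficient). It passed for 10 of 32 genes, all with a positive value, where 26.5% of all tested genes passed, 15.5% positive and 11% negative, and the median was 0.43 against 0.06 for all genes. PRPS2 had the largest value (1.92 ± 0.39, limma adjusted p = 0.000505). Its level was higher in full than in glutamine-only medium, as above, and lower in glucose-only than in deficient medium (-0.72 ± 0.28, limma adjusted p = 0.0372), the latter a call lost without deficient A (-0.54), deficient B (-0.77), glucose-only A (-0.59) or glucose-only B (-0.74). PPAT followed (1.68 ± 0.34, limma adjusted p = 0.000445), and its high level in deficient medium was absent from both media with 1 nutrient. NME1 (0.99 ± 0.26, limma adjusted p = 0.00523), PAICS (0.95 ± 0.16, limma adjusted p = 5.32e-05), GMPS (0.92 ± 0.25, limma adjusted p = 0.00601), PGD (0.79 ± 0.18, limma adjusted p = 0.00165) and TKT (0.57 ± 0.14, limma adjusted p = 0.00296) also passed. TKT did not pass with equal protein-coding totals (0.31) or quantile normalization (0.20). GART (0.80) did not pass without deficient A (0.61), glucose-only A (0.70), glutamine-only A (0.71), full A (0.76) or full B (0.68). GUK1 (0.79) did not pass without glucose-only C (0.65) or glutamine-only C (0.56). RRM1 (0.71) did not pass without deficient C (0.52), glucose-only C (0.60), glutamine-only A (0.66), glutamine-only C (0.62) or full B (0.63). With equal protein-coding totals 6 genes were positive and 2, PFAS (-0.96) and RRM2B (-0.74), negative.

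Levels of different genes were compared per kilobase of exon, as the mean normalized count over the union of exons in GENCODE release 29. In full medium TK1 was highest at 48.5 per kb, followed by RRM1 at 34.8, PGD at 34.2, CMPK1 at 34.1, TALDO1 at 28.3, PAICS at 27.6, RRM2 at 19.98 and TKT at 19.5. In deficient medium TKT led at 43.6 per kb, with TALDO1 at 36.9 and PGD at 29.02, while TK1 was at 6.66, RRM1 at 9.12 and RRM2 at 1.54. DHODH at 0.746 and CTPS2 at 0.577 per kb were lowest in full medium. PPAT was among the lower purine genes in full medium at 3.41 per kb, beside PAICS at 27.6, and stood at 8.15 and 19.7 in deficient medium. Of the 33 genes, 10 had a mean under 20 normalized counts in full medium and 6 a mean of at least 100.

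Other genes of nucleotide metabolism gave a mixed picture. Of 44 genes of salvage, interconversion and breakdown 29 were tested, of which 3 rose and 11 fell in deficient (median -0.20), none rose and 5 fell in glucose-only (median -0.07), and 2 rose and 4 fell in glutamine-only medium (median -0.15), each against full. The shares that passed, 48.3%, 17.2% and 20.7%, lay a little below the 51.8%, 22.9% and 22.5% of all tested genes. The mitochondrial adenylate kinase gene AK4 fell in all 3, from 81.3, 78.96 and 86.2 in full to 27.7, 23.1 and 17.6, 32.5, 31.8 and 42.9 and 20.8, 15.7 and 10.9 in glucose-only, glutamine-only and deficient medium. H6PD, which runs the oxidative pentose steps in the endoplasmic reticulum, was 147, 120.3 and 143 in full, 122, 109 and 101 in glucose-only, 102, 83.8 and 89.5 in glutamine-only and 29.9, 27.8 and 26.4 in deficient medium. Its fall in deficient medium was -2.24 ± 0.13, limma adjusted p = 1.81e-14, with no overlap. UPP1, the uridine phosphorylase gene, whose enzyme frees ribose 1-phosphate from uridine, was 13.2, 17.9 and 14.7 in full, 18.1, 19.9 and 24.7 in glucose-only, 40.6, 42.4 and 29.8 in glutamine-only and 72.9, 48.3 and 45.8 in deficient medium. UPP1 rose by 1.78 ± 0.22 (limma adjusted p = 1.05e-07) in deficient and 1.24 ± 0.22 (limma adjusted p = 0.000102) in glutamine-only medium, the 2 media without glucose.

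Folate enzymes supply the one-carbon units for purines and thymidylate. Of 10 such genes 6 were tested by limma. Against full medium 4 rose and 2 did not pass in deficient, and 3 rose and 3 did not pass in both glucose-only and glutamine-only medium, where 26.3%, 9.44% and 10.8% of all tested genes rose in these 3 comparisons. The mitochondrial genes SHMT2 and MTHFD2 rose in each. SHMT2 was 86.6, 107 and 79.8 in full, 207, 200.1 and 195 in glucose-only, 249, 252 and 256 in glutamine-only and 182, 147 and 137 in deficient medium. MTHFD2 was 24.5, 14.1 and 24.8, 43.4, 36.7 and 48.2, 49.6, 55.9 and 46.6 and 53.4, 44.7 and 57.5 in the same order. The full libraries lay below all others for SHMT2 and MTHFD2.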

How the data were processed

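Per the labels' protocols, total RNA was made into stranded, ribosome-depleted libraries. The signal values deposited by the authors are read counts of each gene scaled by a size factor of its library, and the submitters' processing notes name FastQC, HISAT2, Subread, DESeq2 and build GRCh38.p14, without versions, annotation or strand setting. In each library 100% of the deposited values were whole reads times 1 step, within a tolerance of 0.01 reads. Genes with at least 10 normalized counts in at least 3 libraries were kept (9270), and log2(value + 1) was tested with limma 3.58.1 (limma-trend, R 4.3.3), 1 mean per medium over all 12 libraries, with Benjamini-Hochberg adjusted p under 0.05. This scale understates changes of low genes. The recovered reads were also tested by DESeq2 1.42.0 (Wald test) and by the quasi-likelihood test of edgeR 4.0.16 after TMM scaling, and the procedure was tested on simulated data. Other alternatives were pseudocounts of 0.5 and 8, no filter, equal totals, quantile normalization, a replicate block, the compared groups alone and each library left out. Equal protein-coding totals were added after seeing the data.

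The 33 genes and the lists were chosen with earlier results of these data known. The rule for named genes gives values in every library for up to 3 genes per group with the largest change past the threshold against full medium, for the glutamine-using genes and for paralog pairs, and the others by range. It adds up to 3 genes of each further list and the fixed genes MYC, MKI67, PCNA and MTHFD2, while DTYMK and DUT are given by range. One gene fixed with these is not reported here and was left out of its list. Exon lengths and overlaps come from GENCODE release 29, which may differ from the annotation behind the values. All libraries of a medium differed from each other beyond sampling noise, with a chi-square per gene of 1.18 to 7.88.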

Additional observations from a re-analysis of the deposited data

Results flagged for a closer look

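The effect of glucose differed with glutamine present from its effect without glutamine, by the interaction test of the limma fit, for 10 of the 32 tested genes, where 26.5% of all tested genes passed. The log2 values were 1.92 for PRPS2, 1.68 for PPAT, 0.99 for NME1, 0.95 for PAICS, 0.92 for GMPS, 0.80 for GART, 0.79 for PGD, 0.79 for GUK1, 0.71 for RRM1 and 0.57 for TKT. Those of GART, GUK1 and RRM1 did not pass when single libraries were left out, those of GART, GUK1, RRM1 and TKT did not pass with equal protein-coding totals or quantile normalization, and the others held under these settings. With DESeq2 those of GART, GUK1, RRM1 and GMPS (0.88) did not pass. All 4 media enter each value, so a high deficient group, as for PPAT, and a low glutamine-only group, as for PRPS2, both give a positive one.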

How the results depend on the processing

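Of 83 member calls over the 6 comparisons and the interaction, 83 held with a pseudocount of 0.5, 82 with 8, 71 without the filter, 65 with equal totals, 68 with equal protein-coding totals, 68 with quantile normalization, 80 with edgeR and 58 with DESeq2. One direction reversed, TALDO1 in deficient against full, which was -0.02 with equal totals. With DESeq2 the members past the threshold numbered 11 rather than 17 in glucose-only against deficient, 8 rather than 15 in glutamine-only against deficient, 3 rather than 6 in glucose-only against glutamine-only and 6 rather than 10 in the interaction, which also gave 6 with quantile normalization. Over all genes DESeq2 gave 1255 rather than 2124 calls in glucose-only against full, 604 rather than 1234 in glucose-only against glutamine-only and 1495 rather than 2458 in the interaction. The cause was not tested. Equal totals moved the median of all genes to -0.37 in deficient, -0.24 in glucose-only and -0.12 in glutamine-only against full, and to 0.17 and 0.26 in glucose-only and glutamine-only against deficient. The share of calls over all genes that were higher went in deficient against full from 50.8% to 23.6% with equal totals and 38.3% with equal protein-coding totals. It went from 41.2% to 15.5% and 55.9% in glucose-only against full, from 48.2% to 31.6% (equal totals) in glutamine-only against full, from 46.4% to 63.5% and 69.6% in glucose-only against deficient, and from 48% to 75% and 64.3% in glutamine-only against deficient. It went from 37.9% to 21.3% and 58.5% in glucose-only against glutamine-only, and from 58.5% to 32.4% (equal protein-coding totals) in the interaction. Quantile normalization gave 45.7% in the interaction. Same-lettered libraries of different media had correlations of their deviations between -0.029 and 0.067 over 18 pairs, none over 0.1. Other-lettered pairs lay between -0.073 and 0.039 over 36 pairs. Values this small cannot show whether same-lettered libraries shared a batch, and the labels do not say. With the replicate block 83 of 83 calls held and 1 was added, DHODH in glucose-only against full (1.16), and the counts were 16, 9, 11, 17, 15, 6 and 10. Depths of 875033 to 1473587 reads limit the genes under 20 counts, among them TYMS, DHODH, IMPDH2, PRPS2 and CTPS2.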
